A study of Mus musculus with 7 samples.

Results

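Bone morphogenetic proteins (BMPs) are secreted ligands that bind paired type I and type II receptors and act through Smad transcription factors, and secreted antagonists limit them by binding the ligand before it reaches a receptor. Nbl1, the founding member of the DAN family, Grem1, Cer1, Sost and Sostdc1 are DAN-family antagonists. Chrd (chordin), Nog (noggin) and Fst (follistatin, which mainly traps activins) are secreted antagonists of other families, and Bambi is a membrane pseudoreceptor that lacks a kinase. In the pancreas BMP signals are known for their part in development and in the glucose response of β-cells. Sost and Sostdc1 also bind the Wnt co-receptors of the LRP family, which places them between the BMP and Wnt pathways.

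These 9 BMP antagonists were followed in islets after loss of Wnt4. They were chosen by gene symbol, as every non-control spot whose accession maps to one of the 9 symbols, and all 9 were found, with 1 probe each among 56605 probes. The set was drawn up with the difference between the groups already known, so the values of Wnt4βKO against control below are a description of these antagonists and carry no test of their own. The rule has no threshold.

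RNA from pancreatic islets of 7 mice was hybridised, 1 mouse to each single-colour oligonucleotide array. The 3 control mice were Pdx1CreER Tg- and Wnt4fl/fl, and the 4 Wnt4βKO mice were Pdx1CreER Tg+ and Wnt4fl/fl, so that all 7 carried floxed Wnt4 alleles and only the mutants carried Cre. The paper states that each group began with 4 samples and that 1 control was left out for failing quality tests. Both groups were given tamoxifen by gavage 2 times from 4 to 5 weeks of age, were crossed to C57BL/6J and were killed for islet collection at 7 weeks, and the methods give the animals as males. The Cre is driven by the Pdx1 promoter and is active only after tamoxifen, islet preparations also hold cells it does not target, and no group carried the Cre without floxed Wnt4, so an effect of the transgene itself cannot be told apart from loss of Wnt4. The methods describe the controls as littermates of the mutants, but nothing ties an array to a litter, so litter could not enter the fit and the spread between arrays is that between these 7 animals. In whole islets, fewer cells of a type and less RNA per cell cannot be told apart.

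Of the 62976 spots of an array none was saturated, and the share of non-control spots detected well above background was 45.5% to 49.0%. Precision is limited by how few arrays there are. For Wnt4 itself the mean log2 signal of controls was 11.51 ± 0.31 (SD, n = 3) and that of mutants 11.01 ± 0.22 (SD, n = 4). The log2 difference was -0.49 ± 0.17 (SE), with an unadjusted p of 0.0237 and an adjusted p of 0.651 in the limma fit across all probes. The highest mutant array (11.32) lay above the lowest control array (11.17) for Wnt4. The markers of islet tissue were present, since all 10 β-cell, 5 α-cell and 4 δ- and PP-cell markers had a probe that could be tested. The mean of the β-cell markers lay between 11.71 and 11.78 in control and between 11.57 and 11.95 in Wnt4βKO arrays, and the groups overlapped.

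Promoter sequence is shown for 3 antagonists that differ in their detection on these arrays and in their content of CG dinucleotides, which mark the promoters of broadly expressed genes. Nbl1 was well above background on all arrays, and Grem1 and Cer1 on none. RefSeq windows of assembly GRCm38.p6 were matched for 5 of the 9 antagonists, Nbl1, Grem1, Cer1, Sost and Chrd. The CG count of Chrd, which was also well above background on all arrays, is not given. Nbl1 is thus the only detected antagonist whose count is shown. The first 94 bases of the window are given, 250 to 157 bases before the annotated start, where no base of the 3 genes is annotated. All 3 are on the minus strand and are written 5′ to 3′, with each CG in capitals.
Nbl1, chr4:139093127-139093220: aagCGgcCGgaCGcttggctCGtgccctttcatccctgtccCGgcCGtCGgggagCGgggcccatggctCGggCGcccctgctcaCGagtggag
Grem1, chr2:113758805-113758898: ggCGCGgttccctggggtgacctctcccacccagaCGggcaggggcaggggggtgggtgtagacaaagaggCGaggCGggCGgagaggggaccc
Cer1, chr4:82885308-82885401: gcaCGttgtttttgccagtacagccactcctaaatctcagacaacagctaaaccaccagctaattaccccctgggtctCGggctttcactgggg

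The Nbl1 window held 11 CG, a number reached by 5.94% of 32851 windows. The Grem1 window held 6, reached by 19.0%, and the Cer1 window 2, which is also the median of all windows and the number in the Sost window. Of 18077 genes with both a window and a probe, 60.3% had a probe that could be tested in these islets. That share was 84.7% among genes with at least as many CG as Nbl1 and 41.1% among genes with at most as many as Cer1.

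Of the 9 antagonists, 5 were expressed above background in the islets. Nbl1, Nog, Chrd and Bambi were well above background on all 7 arrays, and Sostdc1 on 3 of 3 control and 3 of 4 Wnt4βKO arrays. For Grem1, Cer1, Sost and Fst no array gave a signal well above background. Their median spot signals lay between 17 and 22.5 units and their log2 values between 5.74 and 5.87, so no difference is given for these 4. A signal below the reach of the array cannot be told from absence.

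**Figure D1:**
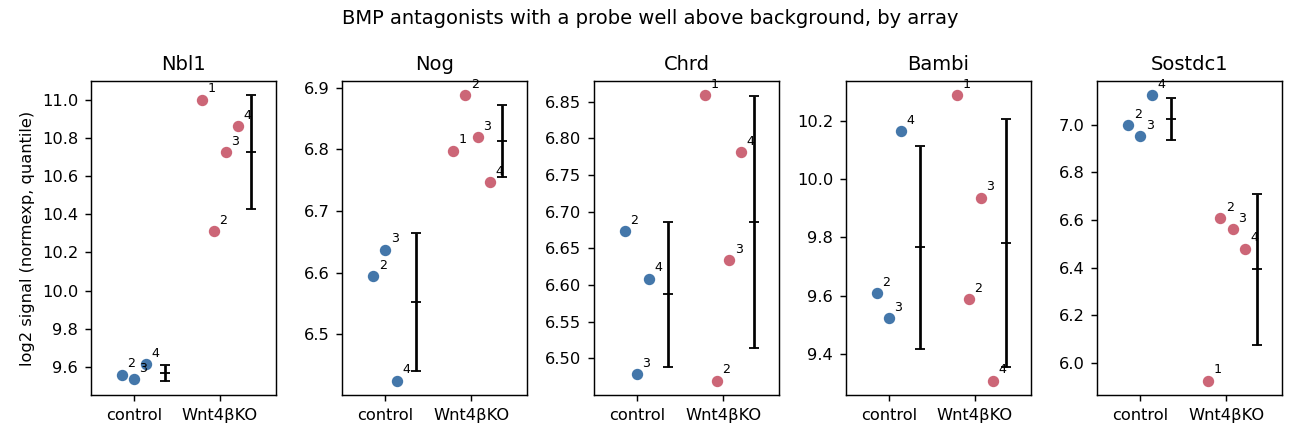
Log2 signal (vertical axis, a separate scale in each panel) of the 5 detected antagonists on each array, with control in blue, Wnt4βKO in red and the replicate number beside each point. Bars show the mean and SD. For Nbl1 and Nog all 4 Wnt4βKO arrays lie above the 3 control arrays, for Sostdc1 all 4 lie below, and for Chrd and Bambi the groups overlap.

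Nbl1 was higher in every Wnt4βKO islet sample. Its probe (A_51_P244492) gave log2 signals of 9.56, 9.53 and 9.62 on the control arrays (replicates 2, 3 and 4, the order used throughout). On Wnt4βKO arrays 1 to 4 it gave 11.001, 10.31, 10.73 and 10.86. The control arrays were nearly equal after quantile normalization, all 4 Wnt4βKO arrays lay above them, and the gap between the nearest arrays of the groups was 0.69. Control arrays averaged 9.57 ± 0.04 (SD, n = 3) and mutant arrays 10.72 ± 0.30 (SD, n = 4), a log2 difference of 1.16 ± 0.16 (SE), which is 2.23-fold. In size this ranked 59 among 26153 tested probes, of which 100 (0.382%) differed by at least 1 on the log2 scale. With median scaling the control arrays were less alike, at 9.23, 9.89 and 9.60, and all 4 Wnt4βKO arrays still lay above them. The separation is visible before normalization: the background-subtracted signal was 545, 928 and 723 units in control and 2550, 1249, 1621 and 1572 units in Wnt4βKO replicates 1 to 4.

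Nog, which binds BMPs with high affinity, was slightly higher in Wnt4βKO islets on a dim probe (A_51_P237040). Its log2 signals were 6.59, 6.64 and 6.43 on the control arrays and 6.80, 6.89, 6.82 and 6.75 on Wnt4βKO arrays 1 to 4. All 4 Wnt4βKO arrays lay above the control arrays, but by only 0.11, which equals the SD of the control arrays. Before normalization the groups overlapped. Background-subtracted signals were 31, 64 and 30 units in control and 57, 67, 52 and 43 units on Wnt4βKO arrays 1 to 4. The log2 difference was 0.26 ± 0.08 (SE). It was 0.52 with a background offset of 0 in place of 50, and with median scaling the groups overlapped for Nog.

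Sostdc1, also known as ectodin or Wise, was lower in Wnt4βKO islets. Its probe (A_51_P392950) gave 7.00, 6.95 and 7.12 on the control arrays and 5.93, 6.61, 6.56 and 6.48 on Wnt4βKO arrays 1 to 4. All 4 Wnt4βKO arrays lay below the 3 control arrays, and replicate 1, the lowest, was not well above background. Controls averaged 7.02 ± 0.09 (SD, n = 3) and mutants 6.39 ± 0.32 (SD, n = 4), which is a log2 difference of -0.63 ± 0.17 (SE), or 64.6% of the control level. The size of the difference depended on how background was treated, and was -1.38 with an offset of 0, -1.03 without background correction and -2.004 with processed signal scaled to its 75th percentile. Sostdc1 stayed below the control arrays on every Wnt4βKO array under all 3.

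Chrd and Bambi showed no separation. Chrd (A_51_P215975) was 6.67, 6.48 and 6.61 in control and 6.86, 6.47, 6.63 and 6.78 in Wnt4βKO replicates 1 to 4, with a log2 difference of 0.10 ± 0.11 (SE). Bambi, which is itself induced by BMP and Wnt signals in many cells, had a strong signal that varied widely within both groups. Its values on A_55_P2807306 were 9.61, 9.52 and 10.16 in control and 10.29, 9.59, 9.94 and 9.31 in Wnt4βKO replicates 1 to 4. Control replicate 4 was close to the highest Wnt4βKO array, and the log2 difference of 0.01 ± 0.26 (SE) leaves room for a change of either sign. The direction for Bambi turned with the processing, as that for Chrd did with the acinar mean as a covariate, at -0.12.

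Of the 5 antagonists tested, 3 (Nbl1, Nog and Sostdc1) had groups that did not overlap, as did 7.28% of all tested probes. Higher on every Wnt4βKO array were 2 antagonists and 3.44% of probes, and lower on every one were 1 antagonist and 3.84% of probes. The same 3 were past an unadjusted limma p of 0.05, which 7.02% of all tested probes passed, 3.26% with a higher and 3.75% with a lower signal in Wnt4βKO. None of the 5 was among the probes past an adjusted limma p of 0.05, which were 0.0153% of those tested. That call turned for Nbl1 when 1 array was left out, the Wnt4βKO array with its lowest signal. Its adjusted limma p was 0.290 with all 7 arrays and 0.0332 without Wnt4βKO replicate 2, and at least 0.160 under the other 20 alternatives. Sostdc1 was no longer past an unadjusted 0.05 with the acinar covariate, nor was Nog with processed signal, with median scaling or without control replicate 4. Since the set was drawn up from this comparison, these shares and p-values describe it and no more.

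The arrays lay in 2 rows of 1 slide, scanned at 1 time. In the first row, with 1 control and 2 Wnt4βKO arrays, the log2 difference was 1.04 for Nbl1, 0.42 for Nog, -0.86 for Sostdc1, 0.06 for Chrd and -0.23 for Bambi. In the second row, with 2 of each, it was 1.25, 0.17, -0.45, 0.13 and 0.06 in the same order. Nbl1, Nog, Sostdc1 and Chrd thus had the same sign in both rows, and Bambi did not.

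Markers of acinar cells, the enzyme-secreting cells of the exocrine pancreas that accompany isolated islets, moved with some of these antagonists. Of 23 acinar markers 21 were lower in Wnt4βKO islets, 8 of them past an unadjusted limma p of 0.05. Among all 13668 tested genes, 4.61% were lower and past it. All 23 were detected, among them the acinar transcription factor Ptf1a with a log2 difference of -1.25 ± 0.29 (SE). The mean log2 signal of the 23 lay between 13.43 and 13.56 in control arrays. In Wnt4βKO replicates 1, 2, 3 and 4 it was 12.28, 13.25, 13.15 and 12.59. Within the Wnt4βKO group the arrays had the same order for Sostdc1 as for the acinar mean, with replicate 1 lowest, then 4, 3 and 2. The order was the reverse for Nbl1 and for Chrd, whose groups overlapped, and Nog and Bambi followed neither order. With the acinar mean as a covariate the log2 difference was 0.79 ± 0.15 (SE) for Nbl1, -0.25 ± 0.17 for Sostdc1 and 0.33 for Nog. The acinar mean was itself lower on every Wnt4βKO array than on any control array, so the covariate and the group cannot be fully told apart. Whether the acinar content gave rise to the differences of the antagonists was not tested.

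**Figure D2:**
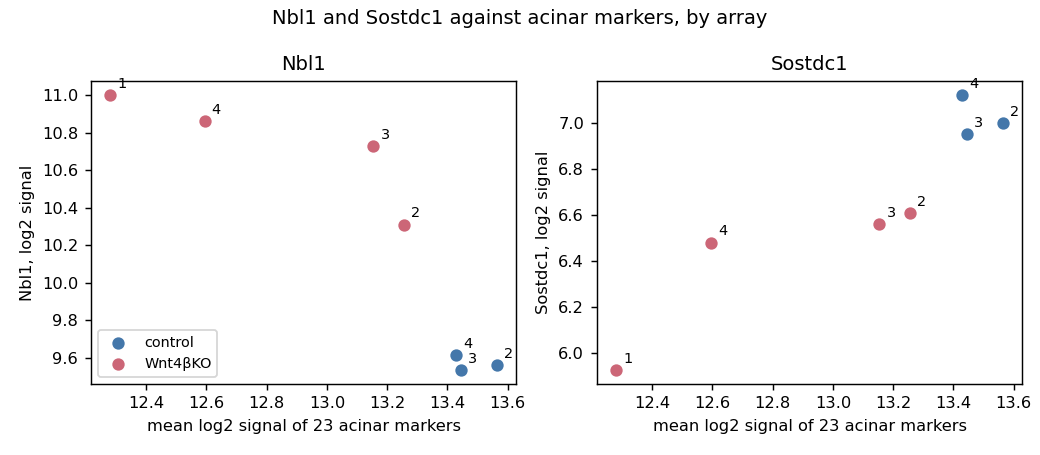
Log2 signal of Nbl1 (left) and Sostdc1 (right) against the mean log2 signal of 23 acinar markers on the same array, with control in blue, Wnt4βKO in red and the replicate number beside each point. Among the 4 Wnt4βKO arrays Nbl1 is highest (11.001) and Sostdc1 lowest (5.93) where the acinar mean is lowest (12.28).

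Other cell types moved less. The mean of 11 mesenchymal markers, cells in which several of these antagonists are expressed in other tissues, lay between 6.90 and 7.93 in control and between 6.71 and 7.92 in Wnt4βKO arrays. The 8 tested immune markers all had positive differences, with array means of 7.83 to 7.97 in control and 7.90 to 8.70 in Wnt4βKO islets. Duct markers had means of 7.57 to 7.65 in control and 7.12 to 7.61 in Wnt4βKO islets, and endothelial markers 7.55 to 7.89 and 7.48 to 7.999. For each of these 4 lists the groups overlapped, and no tested gene of them was past an unadjusted limma p of 0.05. The amount of E1A spike-in RNA relative to the 75th percentile of each array, over 4 spike-in probes, was 1.86 to 2.15 in control and 2.29 to 3.89 in Wnt4βKO arrays on the log2 scale, highest in replicate 1. Its part in the differences of the antagonists was not tested.

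The rest of the BMP pathway was compared in the same fit over 8 lists with 75 genes, each represented by its brightest tested probe, of which 46 genes were tested. None of the 46 was past an unadjusted limma p of 0.05, against 8.98% of 13668 genes with 1 probe each (4.38% higher and 4.61% lower in Wnt4βKO), and none was past an adjusted limma p of 0.05. The median log2 difference was 0.02, beside 0.01 over all genes tested. No further probe of these genes, 16 in number, was past an unadjusted limma p of 0.05 either. A p above the threshold does not show that the genes were alike in both groups, and between 0 and 5 of them were past it when an array was left out, 5 of them without control replicate 3.

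**Figure D3:**
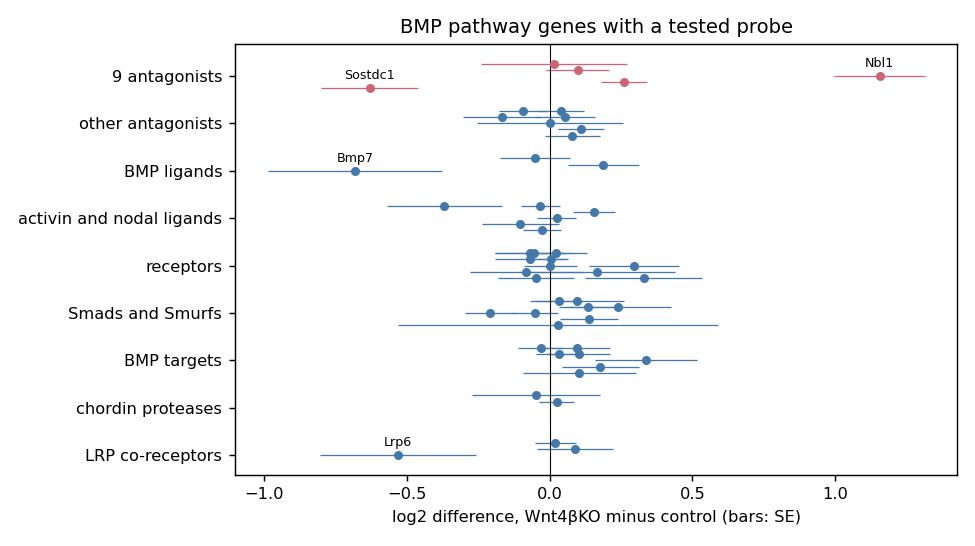
Log2 difference of Wnt4βKO minus control (horizontal axis, bars are SE) for every tested gene of the 9 antagonists in red and of the 8 other BMP pathway lists in blue. Nbl1 at 1.16 lies outside the range of the other lists, which runs from -0.68 (Bmp7) to 0.34 (Id1).

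Among 12 further antagonists, 7 were tested, with log2 differences from -0.17 to 0.11. Twsg1, which modulates BMP binding to chordin, was 9.47, 9.52 and 9.31 in control and 8.95, 9.32, 9.28 and 9.53 in Wnt4βKO replicates 1 to 4, and its groups overlapped. The DAN-family gene Dand5 had a log2 difference of 0.05 ± 0.11 (SE).

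Of 14 BMP ligands only 3 were tested. Bmp7 had the lowest difference of the lists, -0.68 ± 0.31 (SE), with an unadjusted limma p of 0.0586 and an adjusted limma p of 0.730. Its log2 signals were 7.64, 7.14 and 8.09 in control and 6.48, 7.56, 7.05 and 6.66 in Wnt4βKO replicates 1 to 4, and the groups overlapped at control replicate 3. Bmp7 was past an unadjusted 0.05 under 7 alternatives, among them an offset of 0, where the difference was -1.06. The other ligands tested were Bmp3 with -0.05 ± 0.12 (SE) and Bmp4 with 0.19 ± 0.12 (SE).

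Of 11 ligand and inhibitor genes of the activin and nodal branch, which follistatin and Cer1 restrain, 6 were tested. Inha, the inhibin subunit, was 8.57, 8.53 and 8.40 in control and 8.65, 8.60, 8.66 and 8.72 in Wnt4βKO replicates 1 to 4. These groups did not overlap, as for 8.38% of all genes, but the difference was small, 0.16 ± 0.07 (SE), with an unadjusted limma p of 0.0697. Lefty1, an inhibitor of nodal, had a difference of -0.37 ± 0.20 (SE), and its groups overlapped.

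Of 13 receptors and co-receptors 11 were tested, with differences from -0.08 to 0.33. The type II activin receptor Acvr2b had -0.08 ± 0.20 (SE) and the type I receptor Acvr1 -0.07 ± 0.12 (SE). The widest differences were those of Acvrl1, an endothelial type I receptor, at 0.33 ± 0.20 (SE), and of Bmpr2 at 0.30 ± 0.16 (SE). Acvrl1 and Bmpr2 were each past an unadjusted 0.05 with the replicate block, as described among the dependences on processing. Acvrl1 was also past it with the slide row as block and without Wnt4βKO replicate 1, and Bmpr2 without control replicate 3.

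Of 10 Smads and Smurf ubiquitin ligases 8 were tested. Smad1, which carries the BMP signal, had a difference of 0.10 ± 0.16 (SE), and Smad4, the shared partner, 0.14 ± 0.10 (SE). Smurf2 had -0.21 ± 0.09 (SE), with an unadjusted limma p of 0.0516, and was past 0.05 under 5 alternatives, at differences of -0.20 to -0.28. Of 12 BMP target genes 7 were tested, and 6 had positive differences. Id1, the best-known early BMP target, was 6.02, 6.56 and 6.39 in control and 6.63, 7.03, 6.56 and 6.42 in Wnt4βKO replicates 1 to 4, a difference of 0.34 ± 0.18 (SE) with overlapping groups and an unadjusted limma p of 0.0972. With processed signal the difference for Id1 was 0.97, with an unadjusted limma p of 0.0406. Id3 had 0.10 ± 0.20 (SE).

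The protease Bmp1, which cleaves chordin and is not a BMP ligand, had a difference of -0.05 ± 0.22 (SE), and its relative Tll1 0.03 ± 0.06 (SE). All 3 LRP co-receptors were tested. Lrp6 was 9.14, 8.43 and 8.91 in control and 7.72, 8.22, 8.40 and 8.83 in Wnt4βKO replicates 1 to 4. The groups overlapped for Lrp6 through replicate 4, and its difference was -0.53 ± 0.27 (SE), with an unadjusted limma p of 0.0917. Lrp6 was past 0.05 under 3 alternatives, with median scaling at -0.57, without control replicate 3 at -0.73 and without Wnt4βKO replicate 4 at -0.71. Lrp5 had 0.09 ± 0.13 (SE).

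The genes whose log2 signals over the 7 arrays most resembled those of Nbl1 were sought among 19064 named probes. The highest Pearson's r were those of Limd2 (0.992), Sbf1 (0.987), Pomc (0.986), Klhl36 (0.986) and Nle1 (0.983). The lowest were those of Zfp330 (-0.991), Rap1gap (-0.985), Ahcy (-0.984), Tmem68 (-0.983) and Rhpn2 (-0.980). Limd2 followed Nbl1 in every rank, with 10.81, 10.78 and 10.83 in control and 11.74, 11.16, 11.61 and 11.67 in Wnt4βKO replicates 1 to 4. Ahcy, which hydrolyses S-adenosylhomocysteine, ran in the opposite order on a dim probe (A_52_P176160). It gave 6.69, 6.73 and 6.65 in control and 6.00, 6.47, 6.22 and 6.08 in Wnt4βKO replicates 1 to 4. Each gene here is given by its probe with the most extreme r, and its other probes can differ, as those of Rap1gap do below. An r of at least 0.9 was reached by 142 probes (0.745%). All these values come from the same 7 arrays, and on these the groups of Nbl1 are apart.

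Among the antagonists themselves, Nbl1 and Sostdc1 had an r of -0.906 over the 7 arrays, and -0.680 after the mean of each group was removed. Nbl1 and Chrd had 0.619 and, with the group means removed, 0.902, while Nbl1 and Nog had 0.742 and -0.546. The sign for Nog thus turned within the groups, and that for Sostdc1 and Chrd did not. These are descriptions over 7 arrays that share a slide and a normalization.

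Nbl1 lies on chromosome 4, as does Wnt4, and the genes around it were examined after its values had been seen. In the gene order of GRCm38.p6, 24 tested genes lie between them, with a median log2 difference of 0.08 on the brightest tested probe of each. On those probes 2 were past an unadjusted limma p of 0.05, Tmco4 at 0.39 ± 0.09 (SE) and the acinar gene Cela3b at -0.33 ± 0.13 (SE). Rap1gap, named above among the genes opposite to Nbl1, is also one of the 24, and its probes disagreed. Its brightest probe had a log2 difference of -0.14 ± 0.13 (SE) with overlapping groups, and the dimmer probe A_52_P205363 had -0.29 ± 0.07 (SE), past an unadjusted 0.05 in the limma fit (p of 0.00432), and its groups did not overlap. Of the 10 nearest tested genes on each side of Nbl1, only Tmco4, its immediate neighbour on the side of Wnt4, had, on the brightest probe, groups that did not overlap. Micos10, the immediate neighbour on the other side, had -0.33 ± 0.16 (SE), opposite in sign to Nbl1. The 20 neighbours ranged from -0.33 to 0.54, so none reached the size of the Nbl1 difference. Both groups carry the floxed Wnt4 alleles. Whether the place of Nbl1 on the same chromosome as Wnt4 bears on its difference was not tested.

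**Figure D4:**
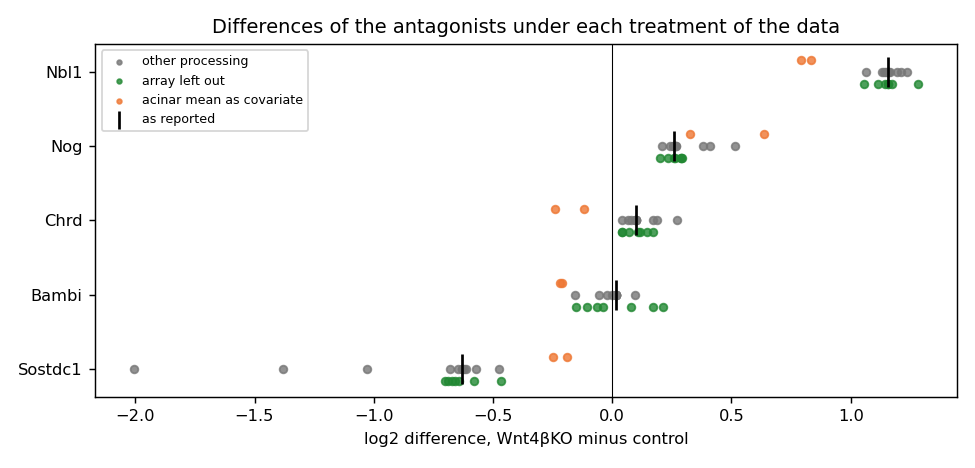
Log2 difference of Wnt4βKO minus control (horizontal axis) for the 5 detected antagonists as reported (black bar), with an array left out (green), with the acinar mean as a covariate (orange) and under other processing (grey). Nbl1 and Nog stay above 0 and Sostdc1 below 0 throughout, with Sostdc1 between -2.004 and -0.19, while Chrd and Bambi lie on both sides.

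Across 21 alternative treatments the difference for Nbl1 stayed between 0.79 and 1.28, and its lowest values were those with the acinar covariate. Nog stayed between 0.20 and 0.64, and Sostdc1, in the 20 that kept its probe, between -2.004 and -0.19.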

How the data were processed

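Islet RNA (50 ng, labelled with Cy3 per the labels) of 3 control and 4 Wnt4βKO mice was hybridised to 1 array each. The authors deposited the scanner output of Agilent Feature Extraction 12.0.1.1, per the file headers, as linear intensity values not normalized between arrays. Following the study's methods, the median spot signal was corrected with normexp (offset 50, all spots) and quantile normalized over non-control spots on the log2 scale. Outlier spots were dropped (65 values among tested probes, none of the antagonists). The 26153 of 56605 probes detected well above background on 3 or more of the 7 arrays were tested two-sided (limma 3.58.1 in R 4.3.3, lmFit and eBayes), and p-values were adjusted over all of these by Benjamini-Hochberg. Accessions were matched to RefSeq genes of GRCm38.p6, which named 32994 probes (58.3%). The arrays were designed on another build, so no probe coordinates are given.

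The antagonists, the lists and the rules were chosen with earlier results of these data known. Named pathway genes were the 2 brightest of each list, up to 4 past an unadjusted 0.05, and, chosen after their values were seen, those that stood out. The alternatives were other background, scaling, filter, variance and weight settings, a replicate block, an acinar covariate, a slide row block and each array left out. The pipeline was tested on simulated data. The log2 value table that the authors deposited was not used. After each probe's mean was removed, its columns correlated with the arrays of the same samples at -0.21 to 0.15 over 15338 probes. Its columns were not set against arrays of other samples, so whether both deposits assign the samples alike is not known. The groups used here rest on the sample labels of the scanner output.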

Additional observations from a re-analysis of the deposited data

How the results depend on the processing

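The number of probes past an adjusted limma p of 0.05 was 4, and 7 with processed signal scaled to its 75th percentile, and 2 with the replicate block, with the acinar covariate, or with the covariate and an offset of 0, a combination chosen after seeing the data. It ranged from 2 to 5 with an array left out, and was 2 without control replicate 2, 3 or 4 or Wnt4βKO replicate 3. The number past an unadjusted 0.05 was 1835, and 767 with median scaling, 2921 with no filter on dim probes, 612 with the acinar covariate, 566 with the covariate and an offset of 0, and 1436 to 2193 with an array left out. Of the antagonists 3 were past it, 1 with the covariate and an offset of 0, 2 with the acinar covariate, processed signal, median scaling or detection required on all 7 arrays (where Sostdc1 was not tested), and 2 to 3 with an array left out (2 without control replicate 4). Of the pathway genes 0 were past it, 1 without background correction, with an offset of 0, with the mean local background, with cyclic loess or with trended and robust eBayes, 2 with processed signal, median scaling or no filter, 3 with the slide row as block, and 0 to 5 with an array left out (5 without control replicate 3).

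With the acinar covariate the log2 difference was 0.79 for Nbl1, -0.25 for Sostdc1 and -0.12 for Chrd, and with an offset of 0 as well 0.83, -0.19 and -0.24. Sostdc1 was -1.03 without background correction, -1.38 with an offset of 0 and -2.004 with processed signal, and was not tested where all 7 arrays had to be well above background. Chrd was 0.27 with processed signal. Nog was 0.41 without background correction, 0.52 with an offset of 0, 0.38 with processed signal and 0.64 with an offset of 0 and the covariate. Leaving out each array gave 1.05 to 1.28 for Nbl1, -0.70 to -0.47 for Sostdc1, 0.04 to 0.17 for Chrd, 0.20 to 0.29 for Nog and -0.15 to 0.21 for Bambi. The cause of these shifts was not tested. The mean over probes was 0 past the threshold for the pathway genes and could not alter the antagonists, which have 1 probe each.

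Replicate numbers 2, 3 and 4 occur in both groups, but whether they pair the arrays is not known. The deviations of same-numbered arrays correlated at -0.13, 0.23 and -0.01, and those of the other pairs at -0.31 to 0.16. With so few arrays these values cannot decide it. With the replicate block the log2 difference was 1.06 for Nbl1, 0.27 for Nog and -0.47 for Sostdc1, and 4 pathway genes were past an unadjusted 0.05: Acvrl1, Bmpr2, Id3 and Bmp4. Signal close to background limits Sostdc1, Nog and Chrd.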
